A study of Mus musculus with 6 samples.

Results

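The genes described are 41 G-protein-coupled receptors (GPCRs) known from pancreatic islets, other than the class B receptors for glucagon, GLP-1 and related peptides. They were listed by name and matched to 41 of the 53801 mouse genes in the data, with no threshold on their values. RNA was measured in 6 clonal lines of MIN6, an insulin-producing mouse insulinoma line, with 1 library per clone. All 6 lines express Cas9 and carry a guide RNA against *Snd1*. In the 3 control clones the guide targets intron 2 by the labels, and in the 3 *Snd1* KO clones it targets exon 2. The paper lists 2 guides against exon 2 and shows 1 KO clone under the second of them. The labels do not name the guide of each library. Each line was expanded from a single cell, so a difference between groups is one between 3 and 3 clones, and a feature of a clone and an effect of the edit cannot be told apart in any 1 line. In bulk RNA, fewer cells of a type and less RNA per cell cannot be told apart either. Values are given as TPM, in which reads on a gene are divided by its length and scaled to a total of 1000000 in each library.

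GPCRs sit in the cell membrane and pass the binding of a ligand to G proteins inside the cell. In β cells, receptors coupled to Gs raise cAMP and those coupled to Gq raise calcium and diacylglycerol, and both potentiate insulin secretion in response to glucose. Receptors coupled to Gi lower cAMP and restrain secretion, as adrenaline, somatostatin and galanin do.

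*Snd1* itself was at 113, 119 and 112 TPM in the control clones and at 14.7, 57.1 and 19.9 TPM in the *Snd1* KO clones. All KO clones were below all controls, with clone 2 nearest to them. Reads on genes, recovered from the TPM steps, ranged from 25808058 to 32996071 per clone, and 3 reads were taken as the floor of detection. Control 3 correlated best with a clone of the other group, *Snd1* KO 3 (r = 0.955 across 11368 genes), and at most at 0.943 with its own. *Snd1* KO 1 was nearest to Control 3 (r = 0.938). These clones therefore stand apart from their groups, and values without each are given where a count turns on them. All 11 β cell markers passed the expression filter of a mean of 0.5 TPM. *Ins2* was at 11194 to 18632 TPM and *Pdx1* at 1634 to 2164 TPM over the clones, while *Slc30a8* and *Ucn3* were higher and *Glp1r* lower in all KO clones. Of 3 δ cell markers, somatostatin was at 0, 2 and 0 reads in the controls and at 9, 0 and 0 in the KO clones, and *Hhex* was at 0. *Rbp4* was lower in all KO clones, and the 3 summed to 23.9 to 40.0 TPM in the controls and 3.49 to 10.1 TPM in the KO clones. Glucagon RNA was at 174 to 314 TPM in the controls and at 1100, 55.2 and 148 TPM in the KO clones. *Irx1*, also an α cell marker, had 0, 0 and 1 reads in the controls and 2, 29 and 65 in the KO clones. The part of these marker differences in the receptor values was not tested. The summed level of 6 exocrine and duct markers was at most 0.819 TPM, and that of 6 stromal, vascular and immune markers was 1.93 to 4.30 TPM.

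Among the 41 receptors, 27 passed the filter and 14 did not. The number with more than 3 reads was 29 to 31 in each clone. 27 receptors were above this floor in every clone, 6 in some clones and 8 in none. The clones therefore expressed a similar number of receptors, and the differences among them were mainly of level.

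*Ffar1*, the Gq-coupled receptor for long-chain fatty acids, had the highest deposited level of the 41 in each of the 6 clones. Its mean was 573 TPM, followed by *Adra2a*, the α2A adrenergic receptor, at 326 TPM and *Sstr3*, a somatostatin receptor of the Gi class, at 156 TPM. On the deposited scale, the ranges of these 3 over the clones did not overlap with each other or with that of the next receptor. They held 64.6% of the summed receptor TPM. Below them the order was *Galr1* (79.5 TPM), *Ffar3* (77.6), *Gabbr2* (70.3), *P2ry1* (63.4), *Galr3* (58.0), *Adgrg1* (42.3), *Gprc5b* (29.6), *Drd2* (26.1), *Chrm3* (25.0), *Adora1* (20.5), *Casr* (13.5), *Sstr5* (11.5), *Cnr1* (9.55), *Gprc5c* (9.05), *Ffar2* (9.02), *Htr1d* (7.81), *Chrm4* (7.80) and *Gabbr1* (5.23), all as mean TPM. Each neighbouring pair in this stretch overlapped in its range over clones. The deposited TPM divide by the summed length of all annotated transcripts, which lowers genes with many transcripts. With each exonic base counted once, the order at the top changed. *Ffar1* and *Adra2a* were then at means of 358 and 355 TPM with overlapping ranges, each was first in 3 clones, and *P2ry1* (52.1 to 171 TPM) overlapped *Sstr3* (97.5 to 123 TPM). On this scale *Adgrg1* moved from position 9 to 5 and *Galr1* from 4 to 8. For 5 receptors, *Adra2a* and *Galr1* among them, the length behind the deposited value was not that of the annotation, so these values are approximate.

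**Figure D1:**
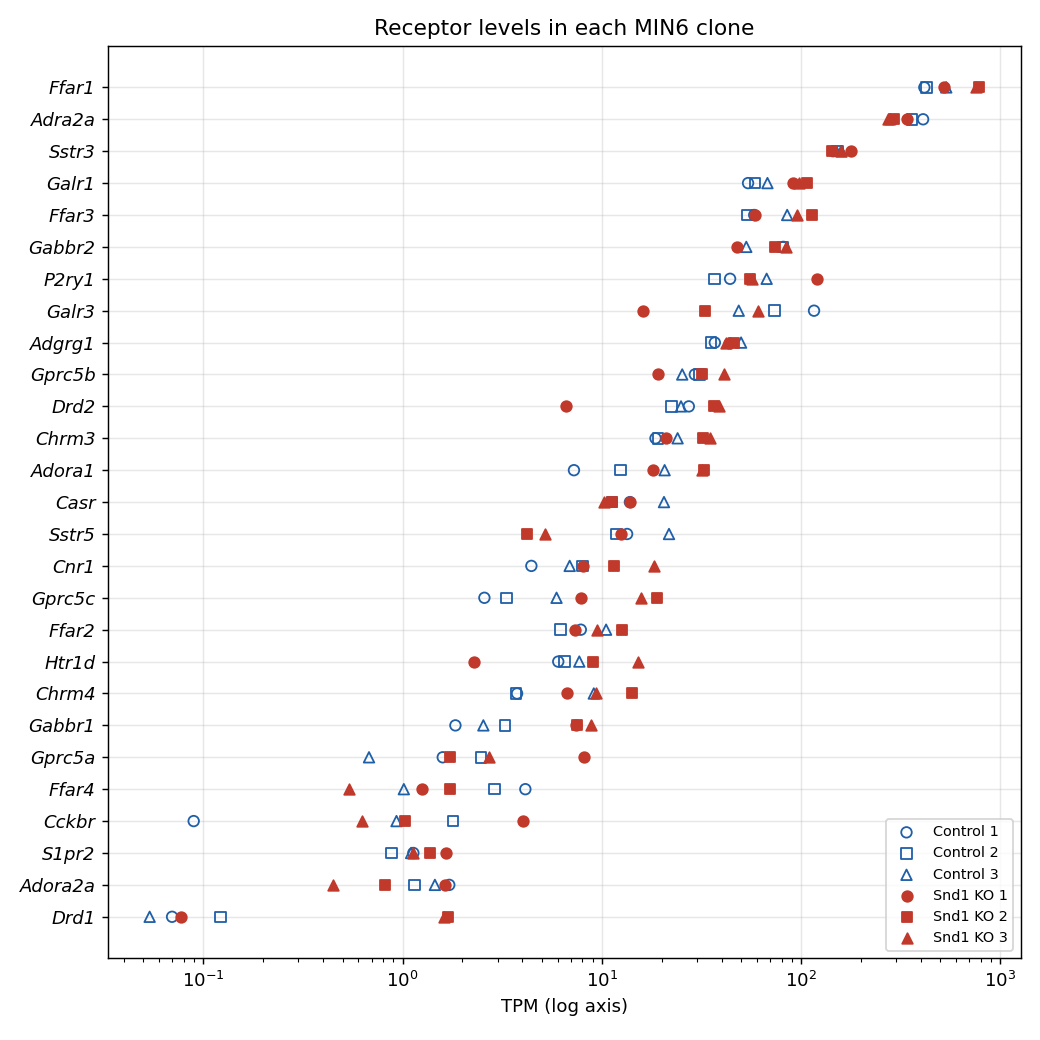
Level of the 27 receptors that passed the filter in each clone, as TPM on a log axis, ordered by mean. Open blue symbols are control and filled red symbols *Snd1* KO clones. On this deposited scale *Ffar1*, *Adra2a* and *Sstr3* lie apart from the rest, and 12 receptors spread at least 4-fold between their highest and lowest clone.

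By the coupling known for each receptor, 20 Gi-coupled receptors held 52.5% of the summed TPM and 9 Gq-coupled receptors 40.8%, over all clones together. The Gi sum was 789 to 930 TPM in the controls and 794 to 897 TPM in the KO clones. The Gq sum was 484 to 630 TPM in the controls and 667 to 873 TPM in the KO clones, without overlap. *Ffar1*, its largest part, did overlap, with *Snd1* KO 1 at 519 TPM below Control 3 at 536 TPM. The nearest sums were also of these clones, 667 against 630 TPM, and *P2ry1* was at 120 against 67.2 TPM in them. The 4 Gs-coupled receptors held 0.116%. Of these, *Adora2a* ranged from 0.450 to 1.72 TPM, *Drd1* passed the filter only through the KO clones, *Gpr119* reached at most 3 reads and *Adrb1* at most 1 read. These shares depend on which receptors were listed. *Adora2b*, a Gs-coupled receptor outside the list that is described below, was above the summed level of the 4 in every clone.

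The first question was which receptors differ between *Snd1* KO and control. By limma on log2(TPM + 1) over 17823 genes with Benjamini-Hochberg adjustment, 0 of the 27 receptors were called at an adjusted p under 0.05 and at least 2-fold, against 0.00561% of all genes. 7 receptors had an unadjusted p under 0.05, against 7.96% of all genes, and the lowest adjusted p of a receptor was 0.308. By voom on recovered reads, 0 receptors and 0 of all genes were called. At the same limits of fold and false discovery rate the authors reported many more genes, in both directions. The submitters' notes name DESeq2, which was not run here, and the reason for the difference was not tested. The median log2 fold change was 0.24 over the receptors and 0.04 over all genes, and 19 of 27 were above 0, against 57.3% of all genes. Values on the log2(TPM + 1) scale understate differences of low genes. *Drd1* passed the filter only through the KO clones, and over the other 26 receptors the median was 0.23. The median over the receptors was 0.17 without Control 2, 0.37 without *Snd1* KO 1 and 0.14 without *Snd1* KO 2. Clone quality weights gave *Snd1* KO 3 a weight of 3.91, against 0.672 for *Snd1* KO 2 and 0.286 for *Snd1* KO 1. Among the controls, Control 1 had 1.87, Control 2 had 2.54 and Control 3 had 0.279. With these weights 8 receptors were called, against 5.02% of all genes, and the KO side rested mainly on *Snd1* KO 3. Of the 8, 6 were higher (*Drd1*, *Gabbr1*, *Chrm4*, *Adora1*, *Cnr1* and *Gprc5c*, against 2.95%) and 2 lower (*Sstr5* and *Ffar4*, against 2.08%). Among the 26 receptors other than *Drd1*, 5 were higher and 2 lower with these weights. An exact two-sided permutation test of 3 against 3 clones cannot give a p below 0.1.

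4 receptors, *Galr1*, *Gabbr1*, *Gprc5c* and *Cnr1*, lay above all control clones in all 3 *Snd1* KO clones, as 9.69% of all genes did. 0 receptors were lower in every KO clone, where 4.03% of all genes were. Without Control 3 the number higher was 11, against 17.2% of all genes, and the number lower was 4 (*Ffar4*, *Adra2a*, *Galr3* and *Cckar*), against 17.9%. *Cckar* then passed the filter only through the control clones, and 3 were lower without it. Without *Snd1* KO 1 the number higher was 13 (12 without *Drd1*), against 22.6%, and the number lower was 3 (*Sstr5*, *Adora2a* and *Casr*), against 10.9%. After Control 3 was left out 28 receptors passed the filter, and without *Snd1* KO 1 27 did. Leaving out any clone loosens the rule, so the counts could hardly fall. Without Control 1, Control 2, *Snd1* KO 2 or *Snd1* KO 3, 5 or 6 receptors were higher, against 12.1% to 14.7% of all genes. The number lower was then 0 to 2, against 5.24% to 7.53%. The counts rose most without Control 3 or *Snd1* KO 1, for receptors and for all genes.

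*Gabbr1* and *Gabbr2* encode the subunits of the GABA-B receptor, which works as a dimer of both and signals through Gi. *Gabbr1* (chr17:37045966-37075067, plus strand) was at 1.84, 3.26 and 2.55 TPM in the control clones and at 7.41, 7.50 and 8.81 TPM in the KO clones. The KO clones lay close together and well above the highest control. The group means were 2.55 ± 0.710 and 7.91 ± 0.784 TPM (SD, n = 3 each), a ratio of 3.10, with a log2 fold change of 1.34 (SE 0.21) and an adjusted p of 0.308 by limma. *Gabbr2* was at 81.5, 81.3 and 53.1 TPM in the controls and at 47.6, 73.8 and 84.4 TPM in the KO clones, so its groups overlapped. *Gabbr1* TPM as a percentage of *Gabbr2* TPM was 2.26, 4.01 and 4.79 in the controls and 15.6, 10.2 and 10.4 in the KO clones. With each exonic base counted once, the percentages were 4.29, 7.61 and 9.08 in the controls and 29.5, 19.3 and 19.8 in the KO clones. On both scales the subunit ratio was higher in every KO clone, with *Gabbr2* above *Gabbr1* in all 6. *Gad2*, which makes GABA, was at 23.4, 11.9 and 27.7 TPM in the controls and at 13.2, 21.3 and 62.9 TPM in the KO clones, with overlap.

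*Galr1* and *Galr3* are receptors for galanin, a neuropeptide that inhibits insulin release through Gi. *Galr1* was at 54.2, 58.8 and 67.8 TPM in the control clones and at 91.0, 108 and 97.4 TPM in the KO clones. The gap between the groups was wider than the range within either. The means were 60.3 ± 6.93 and 98.7 ± 8.38 TPM (SD, n = 3 each), with a log2 fold change of 0.70 (SE 0.12) and an adjusted p of 0.372 by limma. *Galr3* was at 116, 73.7 and 48.7 TPM in the controls and at 16.0, 32.8 and 60.9 TPM in the KO clones. The highest KO clone was above the lowest control, and the range spanned 7.25-fold. Its log2 fold change was -1.20 (SE 0.51, limma adjusted p = 0.607), and leaving out *Snd1* KO 1 gave -0.73 and leaving out *Snd1* KO 3 gave -1.66. *Galr3* shares 363 of its 1245 exonic bases with *Gcat* on the same strand, whose level was 25.8 to 34.1 TPM in all clones. Galanin itself reached at most 2 reads.

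*Gprc5a*, *Gprc5b* and *Gprc5c* are orphan receptors of class C, from a family named for induction by retinoic acid. *Gprc5c* (chr11:114851152-114872617, plus strand) was at 2.58, 3.33 and 5.93 TPM in the controls and at 7.86, 18.9 and 15.7 TPM in the KO clones. Control 3 was the highest control and *Snd1* KO 1 the lowest KO clone, and these were the nearest pair across the groups. The means were 3.95 ± 1.76 and 14.2 ± 5.69 TPM (SD, n = 3 each), a ratio of 3.59, with a log2 fold change of 1.59 (SE 0.38) and an adjusted p of 0.543 by limma. *Gprc5a* was at 1.59, 2.47 and 0.679 TPM in the controls and at 8.19, 1.74 and 2.70 TPM in the KO clones. *Snd1* KO 1 stood alone above the others, and Control 3 alone below. *Gprc5b* was at 29.3, 30.9 and 25.3 TPM in the controls and at 19.1, 31.8 and 41.1 TPM in the KO clones, with the KO clones on both sides of the controls. Of its 4630 exonic bases, 606 are shared with *Iqck* on the opposite strand, which was at 1.13 to 2.29 TPM.

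*Cnr1* encodes the CB1 cannabinoid receptor, which couples to Gi. It was at 4.43, 8.01 and 6.90 TPM in the controls and at 8.05, 11.5 and 18.4 TPM in the KO clones. The groups were separate only narrowly, since the lowest KO clone was level with the highest control. The means were 6.45 ± 1.83 and 12.6 ± 5.24 TPM (SD, n = 3 each), with a log2 fold change of 0.83 (SE 0.32) and an adjusted p of 0.607 by limma. The log2 fold change was 0.55 without *Snd1* KO 3.

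**Figure D2:**
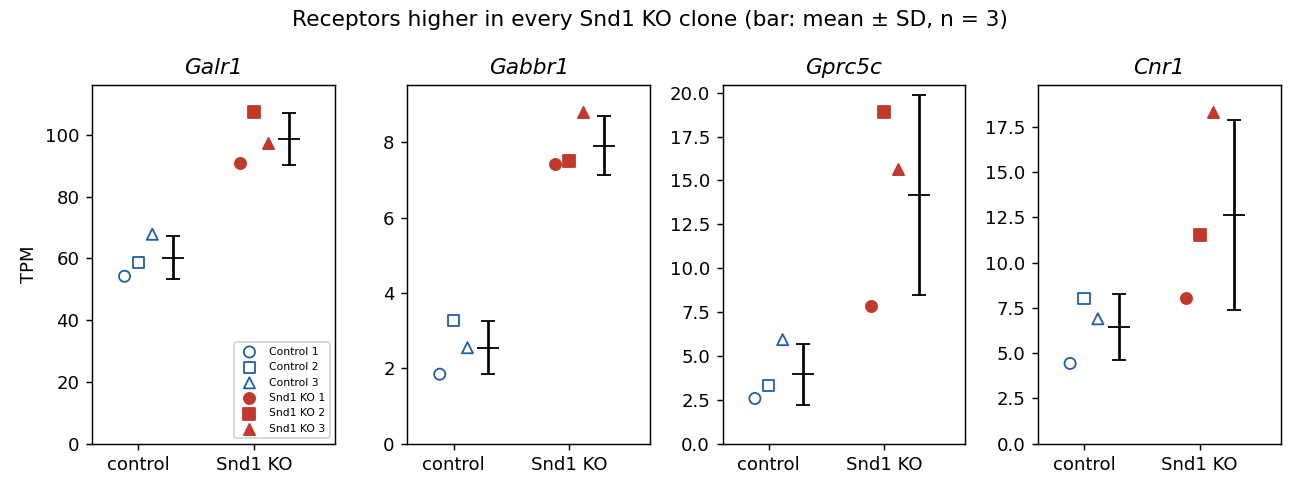
TPM of *Galr1*, *Gabbr1*, *Gprc5c* and *Cnr1* in each clone, with the mean and SD of each group of 3 beside the points. All *Snd1* KO clones lie above all control clones, most narrowly in *Cnr1* (8.05 against 8.01 TPM).

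Sequences before the start sites of *Gabbr1* and *Cnr1* are shown because these receptors were higher in every KO clone, and those of *Ffar1* and *Ffar3* because they are neighbours whose levels took a similar order across clones. They are from RefSeq promoters (GRCm38), which held 32 of the 41 receptors. *Galr1* and *Gprc5c*, also higher in every KO clone, were not among them. Sequences run 5′ to 3′ on the gene's strand and end at the base before the RefSeq start. *Ffar1* was shortened to the bases outside its GENCODE exon. The *Cnr1* window ends at 33924263, upstream of the GENCODE start at 33924593. Capitals mark matches, on either strand, to the cAMP response element TGACGTCA, the GC box GGGCGG, the TATA box TATAAA, the CCAAT box CCAAT or the homeodomain core TAATTA. *Gabbr1* is at chr17:37045716-37045965 (plus strand), *Cnr1* at chr4:33924014-33924263 (plus strand, the farthest upstream of 3 starts), *Ffar1* at chr7:30861565-30861720 (minus strand) and *Ffar3* at chr7:30856179-30856428 (minus strand).
Gabbr1: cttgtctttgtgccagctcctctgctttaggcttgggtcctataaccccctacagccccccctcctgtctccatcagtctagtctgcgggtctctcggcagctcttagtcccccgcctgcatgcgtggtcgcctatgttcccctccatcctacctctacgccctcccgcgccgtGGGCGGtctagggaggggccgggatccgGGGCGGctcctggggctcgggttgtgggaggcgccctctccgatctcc
Cnr1: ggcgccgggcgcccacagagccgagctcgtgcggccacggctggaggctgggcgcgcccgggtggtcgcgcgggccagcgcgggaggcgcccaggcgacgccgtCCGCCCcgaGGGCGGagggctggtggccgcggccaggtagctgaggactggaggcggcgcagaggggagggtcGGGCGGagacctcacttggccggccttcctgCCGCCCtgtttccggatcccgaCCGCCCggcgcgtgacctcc
Ffar1: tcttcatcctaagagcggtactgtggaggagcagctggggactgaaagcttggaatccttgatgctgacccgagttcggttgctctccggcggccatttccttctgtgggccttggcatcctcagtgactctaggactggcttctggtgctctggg
Ffar3: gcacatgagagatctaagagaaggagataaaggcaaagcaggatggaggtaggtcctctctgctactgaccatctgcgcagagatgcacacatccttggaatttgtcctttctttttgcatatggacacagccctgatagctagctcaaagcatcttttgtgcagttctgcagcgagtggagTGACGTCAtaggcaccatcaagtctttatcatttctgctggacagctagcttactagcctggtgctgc

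The *Gabbr1* window held 2 and the *Cnr1* window 5 GC boxes, a motif found in 32.7% of 32851 promoter windows of 250 bases. The *Ffar3* window held 1 cAMP response element, found in 1.55% of windows, and the 156 bases of *Ffar1* held none of the 5 motifs. TATA boxes stood in 12.4%, CCAAT boxes in 33.8% and homeodomain cores in 4.84% of windows. No motif contains another, and a match is a stretch of letters only. GC content was 66.0% in the *Gabbr1* and 79.2% in the *Cnr1* window, against 57.1% in that of *Ffar1* and 48.0% in that of *Ffar3*.

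Receptors for free fatty acids sense nutrients, FFAR1 and FFAR4 long-chain and FFAR2 and FFAR3 short-chain acids. *Ffar1*, *Ffar3* and *Ffar2* are neighbours on the minus strand of chromosome 7, at chr7:30857390-30861564, chr7:30854330-30856178 and chr7:30818348-30823775, with 1211 bases between *Ffar1* and *Ffar3*. *Ffar1* was at 416, 427 and 536 TPM in the controls and at 519, 782 and 756 TPM in the KO clones. *Snd1* KO 1 lay just below Control 3, so the groups overlapped. Its log2 fold change was 0.56 (SE 0.20, limma adjusted p = 0.589). *Ffar3* was at 58.2, 53.7 and 85.2 TPM in the controls and at 58.8, 114 and 95.3 TPM in the KO clones. *Ffar2* was at 7.85, 6.19 and 10.5 TPM and at 7.37, 12.7 and 9.51 TPM. All 3 neighbours were highest in *Snd1* KO 2, and Control 3 was above the other controls in each. *Ffar3* TPM stayed at 11.3% to 15.9% of *Ffar1* TPM in every clone, while *Cd22*, beside *Ffar1*, was at most at 0.363 TPM. *Ffar4*, elsewhere in the genome, was at 4.14, 2.90 and 1.02 TPM in the controls and at 1.25, 1.73 and 0.539 TPM in the KO clones, so it did not follow the other 3.

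Catecholamine receptors were represented at high level by *Adra2a*, which mediates the inhibition of insulin release by adrenaline. It was at 410, 360 and 281 TPM in the controls and at 340, 292 and 273 TPM in the KO clones. The control clones other than Control 3 were above all KO clones, and Control 3 was within the KO range. Its log2 fold change was -0.21 (SE 0.17, limma adjusted p = 0.758), and it was -0.083 without Control 1 and -0.36 without Control 3. *Drd2*, a Gi-coupled dopamine receptor, was at 27.3, 22.4 and 25.0 TPM in the controls and at 6.62, 36.7 and 38.8 TPM in the KO clones. The KO clones lay on both sides of the controls, with *Snd1* KO 1 far below. *Drd1*, the Gs-coupled dopamine receptor, had 3, 5 and 2 reads in the controls and 3, 63 and 65 in the KO clones. It was near the floor in *Snd1* KO 1 as in all controls, and reached 1.69 and 1.62 TPM in the other KO clones. *Th*, the rate-limiting enzyme of dopamine synthesis, was at 82.2, 79.2 and 109 TPM in the controls and at 21.9, 137 and 144 TPM in the KO clones, also lowest in *Snd1* KO 1. *Ddc*, which makes dopamine and serotonin, was at 161 to 194 TPM in the controls and at 226 to 257 TPM in the KO clones, without overlap.

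*Htr1d*, a Gi-coupled serotonin receptor, was at 6.05, 6.48 and 7.71 TPM in the controls and at 2.30, 9.05 and 15.2 TPM in the KO clones. The order of the KO clones was that of *Drd2*, with *Snd1* KO 1 lowest and *Snd1* KO 3 highest. *Tph1*, which starts serotonin synthesis, was at 8.18, 7.78 and 18.1 TPM in the controls and at 89.2, 7.52 and 10.3 TPM in the KO clones, highest in *Snd1* KO 1. Without *Snd1* KO 1 the log2 fold changes of *Drd2* and *Htr1d* were 0.59 and 0.73, in place of -0.20 and 0.08 with all 6 clones.

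Somatostatin receptors restrain insulin release through Gi. *Sstr3* was at 145, 153 and 159 TPM in the controls and at 178, 143 and 158 TPM in the KO clones, with overlap. *Sstr5* was at 13.4, 11.9 and 21.7 TPM in the controls and at 12.5, 4.24 and 5.19 TPM in the KO clones. *Snd1* KO 2 and 3 lay below all controls and *Snd1* KO 1 lay among them. Its log2 fold change was -1.09 (SE 0.40, limma adjusted p = 0.594). *Sstr1* had at most 17 reads, *Sstr2* at most 2 and *Sstr4* 0.

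Muscarinic receptors carry the parasympathetic signal of acetylcholine, *Chrm3* through Gq and *Chrm4* through Gi. *Chrm3* was at 18.6, 19.2 and 24.0 TPM in the controls and at 21.1, 32.3 and 34.9 TPM in the KO clones. *Chrm4* was at 3.76, 3.70 and 9.12 TPM in the controls and at 6.73, 14.1 and 9.38 TPM in the KO clones. In both genes *Snd1* KO 1 lay below Control 3 and the other KO clones above all controls.

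Purine receptors respond to ATP, ADP and adenosine. *P2ry1*, a Gq-coupled ADP receptor, was at 44.1, 36.9 and 67.2 TPM in the controls and at 120, 55.4 and 56.7 TPM in the KO clones. *Snd1* KO 1 stood above the rest, and the other KO clones were within the control range. *Gm37035*, which overlaps it on the opposite strand, was also highest in *Snd1* KO 1, at 4.06 TPM against 0.569 to 1.69 TPM elsewhere. *Adora1*, the Gi-coupled adenosine receptor, was at 7.25, 12.4 and 20.7 TPM in the controls and at 18.1, 32.5 and 32.0 TPM in the KO clones. Only *Snd1* KO 1 fell within the control range. Its log2 fold change was 1.05 (SE 0.39, limma adjusted p = 0.598), or 0.70 without Control 1, and *Mybph*, which shares 1162 of its 5785 exonic bases on the opposite strand, was at most at 2.15 TPM.

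Cholecystokinin potentiates insulin secretion through its receptors. *Cckbr* was at 0.0895, 1.79 and 0.933 TPM in the controls and at 4.03, 1.03 and 0.625 TPM in the KO clones. The groups overlapped, and the value of Control 1 rests on 2 reads, under the floor. *Cckar*, just under the filter, had 43, 36 and 6 reads in the controls and 13, 1 and 3 in the KO clones. Control 1 and Control 2 were highest, and *Snd1* KO 1 was above Control 3. The peptide *Cck* was at 2368, 3174 and 1803 TPM in the controls and at 1041, 397 and 987 TPM in the KO clones. All KO clones were below all controls, with a log2 fold change of -1.68 (SE 0.41, limma adjusted p = 0.556).

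*Casr*, the calcium-sensing receptor, was at 13.8, 11.3 and 20.5 TPM in the controls and at 13.8, 11.2 and 10.2 TPM in the KO clones, with Control 3 highest. *Adgrg1*, an adhesion receptor that binds collagen III, was at 36.9, 35.3 and 50.0 TPM in the controls and at 43.3, 46.1 and 42.1 TPM in the KO clones. The groups of both genes overlapped. *S1pr2*, a receptor for sphingosine 1-phosphate, was at 0.879 to 1.66 TPM.

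The remaining receptors below the filter were low in all clones. *Lpar1*, a receptor for lysophosphatidic acid, had 13 to 84 reads and *Ghsr*, the ghrelin receptor, 4 to 19. *P2ry14* reached 8 reads and *Adra2c* 7. *Npy1r* had at most 3 reads and *Htr2b* at most 1, whereas *Drd4* and *Avpr1b* had 0 in every clone. The detection limit of 3 reads at these depths covers counting error only.

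The pattern across clones was compared next. *Snd1* KO 2 and *Snd1* KO 3 had 0 of 27 receptors at least 2-fold apart on the log2(TPM + 1) scale, against 6.85% of all genes, and Control 1 and Control 2 had 1, against 5.13%. *Snd1* KO 1 differed so from Control 1, Control 2, Control 3, *Snd1* KO 2 and *Snd1* KO 3 in 10, 6, 6, 8 and 10 receptors, and of all genes in 10.4% to 13.5%. Control 1 differed so from *Snd1* KO 2 in 8 receptors and from *Snd1* KO 3 in 9, and Control 2 in 7 and 9, and of all genes in 10.3% to 14.5%. Control 3 differed so from Control 1, Control 2, *Snd1* KO 1, *Snd1* KO 2 and *Snd1* KO 3 in 4, 2, 6, 4 and 6 receptors, and of all genes in 8.89% to 10.6%. On the TPM scale without the log, *Snd1* KO 1 alone was at least 2-fold above every other clone for *Cckbr* and *Gprc5a*, where 1.55% of all genes were, and alone at least 2-fold below for *Galr3*, *Drd2* and *Htr1d*, where 2.39% were. On the same TPM scale, Control 1 alone was at least 2-fold below the others for *Cckbr* (2 reads, under the floor), where 1.18% of all genes were, and Control 3 for *Gprc5a*, where 2.32% were. 12 receptors had a highest clone of at least 4 times the lowest, where 24.7% of all genes did, and in 2 of them, *Cckbr* and *Drd1*, the lowest clone was at or under 3 reads.

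**Figure D3:**
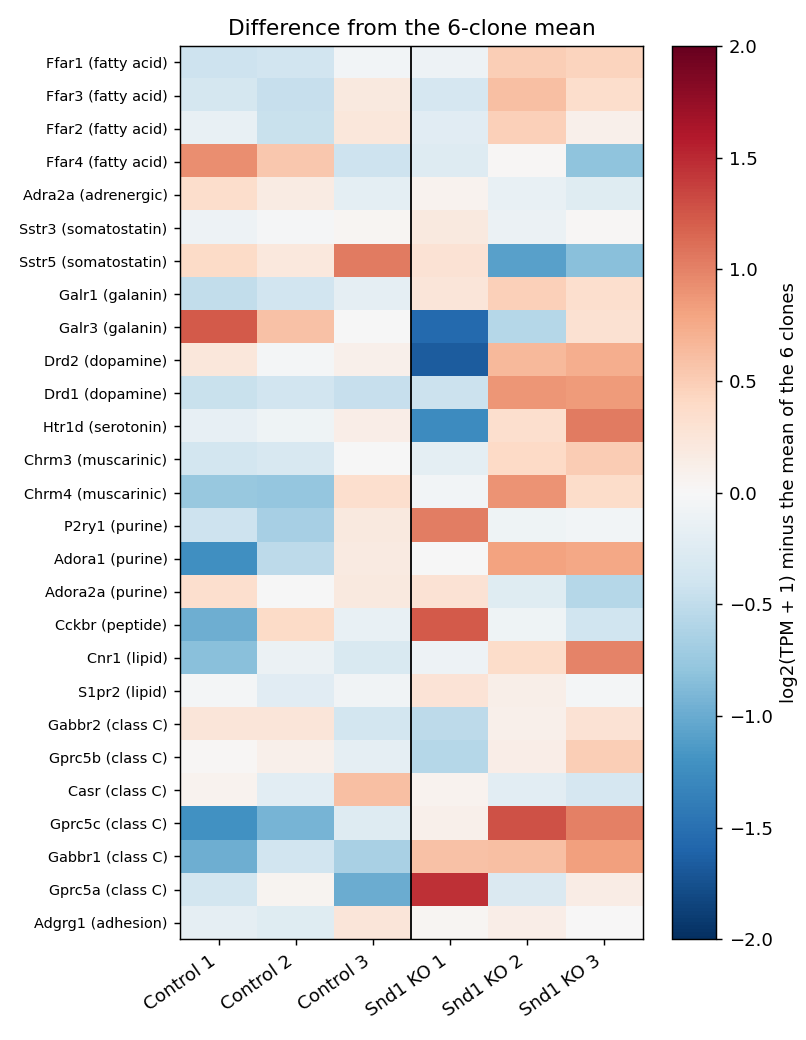
Difference of each receptor in each clone from its mean over the 6 clones, on the log2(TPM + 1) scale, with receptors grouped by ligand or class and the control clones left of the line. *Snd1* KO 2 and *Snd1* KO 3 resemble each other, while *Snd1* KO 1 is low for *Galr3*, *Drd2* and *Htr1d* and high for *Cckbr* and *Gprc5a*.

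**Figure D4:**
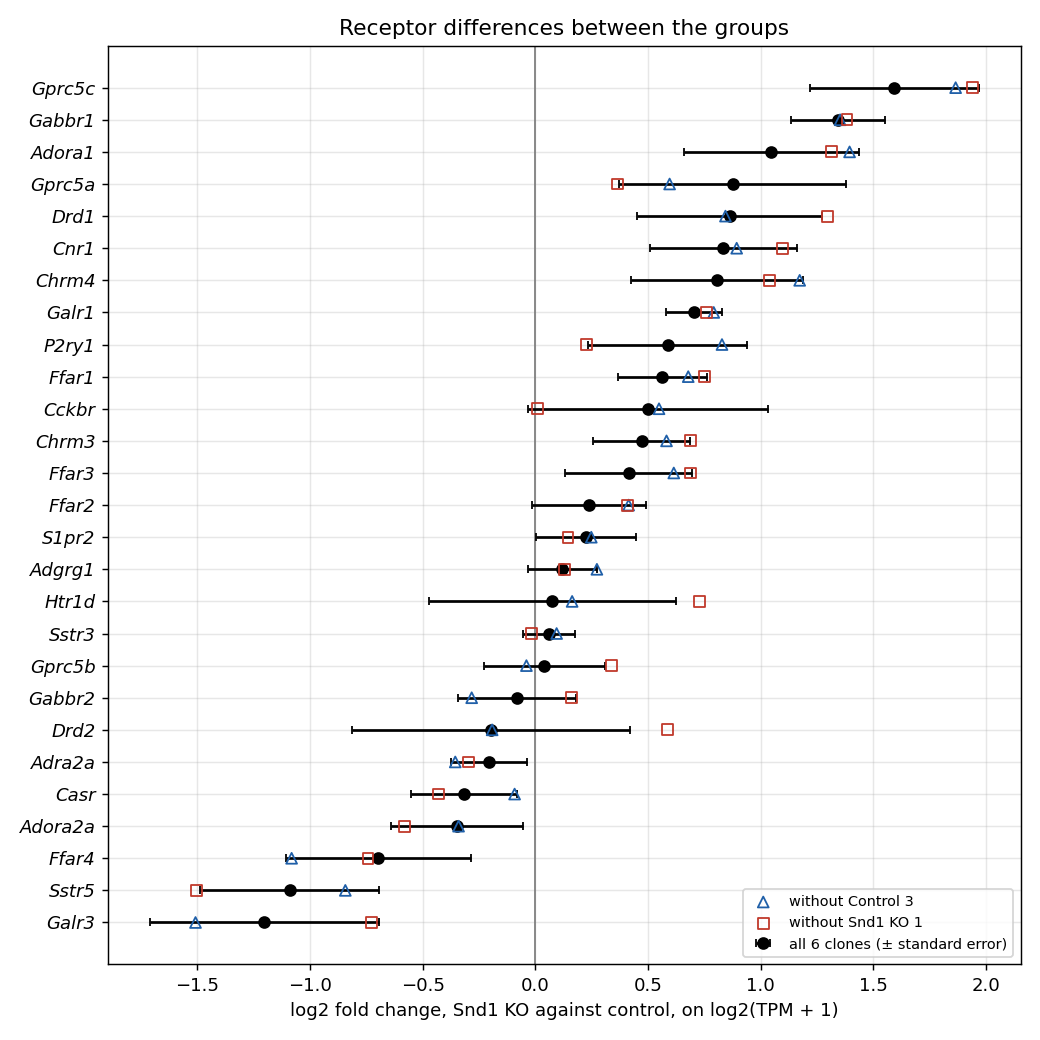
Fitted log2 fold change of each receptor, *Snd1* KO against control, with its standard error (black) and the value without Control 3 (triangles) or without *Snd1* KO 1 (squares). Values range from -1.20 for *Galr3* to 1.59 for *Gprc5c*, and *Drd2*, *Gabbr2* and *Sstr3* lie on the other side of 0 without *Snd1* KO 1, as does *Gprc5b* without Control 3.

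The rest of the pathway was described from lists of G protein subunits, of kinases, arrestins and effectors, of ligands and of further receptors. 0 genes of each list were called by limma, and an unadjusted p under 0.05 was reached by 1 of 23, 1 of 12, 4 of 17 and 1 of 9 tested genes, against 7.96% of all genes. Of 23 tested G protein subunits, 1 was higher and 1 lower in every KO clone, against 9.69% and 4.03% of all genes, which are also the shares for the next 3 lists. The median log2 fold change of the subunits was -0.03. *Gnas*, which encodes the Gs α subunit, was at 210, 215 and 127 TPM in the controls and at 129, 128 and 146 TPM in the KO clones, with Control 3 at the level of the KO clones. Of 12 tested kinases, arrestins and effectors, 2 were higher in every KO clone and 0 lower. Of 17 tested ligands and ligand enzymes, 3 were higher and 2 lower, among them *Cck*. Of 9 tested receptors of the same families, 2 were higher and 0 lower. *Adora2b*, a Gs-coupled adenosine receptor, was at 5.11, 6.38 and 8.76 TPM in the controls and at 15.9, 26.6 and 25.4 TPM in the KO clones. Its groups were separate as in *Gabbr1*, with a log2 fold change of 1.60 (SE 0.26) and an adjusted p of 0.324 by limma.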

How the data were processed

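RNA from 3 control and 3 *Snd1* KO clones of MIN6 was sequenced as paired ends, and the authors deposited TPM per gene, processed on the Genialis platform. The submitters' processing notes name mm10, FastQC, Trimmomatic, HISAT2, HTSeq and DESeq2, without roles or versions. The annotation and the strand setting of the counting are not given in the sources used here, so reads of overlapping genes could not be assigned by strand. Groups and clone numbers were taken from the sample labels. ERCC (92) and SIRV (7) rows were left out.

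Deposited TPM multiplied by the summed exon length of all transcripts in GENCODE M21, which held 53706 of 53801 genes, gave whole reads for 93.5% of values above 0 within 0.01, and a search for the length of 1779 genes gave the rest. From TPM, log2(TPM + 1) was fitted by limma 3.58.1 (eBayes with trend, R 4.3.3) for the 17823 genes whose mean reached 0.5 TPM, with Benjamini-Hochberg adjustment. The threshold was an adjusted p-value under 0.05 together with a 2-fold difference. Single values were compared by exact two-sided permutation tests (scipy 1.17.1). p-values measure the spread between clones. Alternatives were pseudocounts of 0.1 and 0.01, other filters, scalings, variance models and thresholds, voom on recovered reads, clone quality weights, a replicate block and leaving out each clone. Python 3.11.15 was used for the rest. All receptors are accounted for. Values are given clone by clone for receptors with a mean of at least 5 TPM, with groups that do not overlap, or, past the filter, with a highest clone of at least 4 times the lowest. The members, lists and tests were chosen with earlier results of these data known. Values of other genes (*Th*, *Ddc*, *Tph1*, *Gad2* and genes overlapping receptors) were chosen after they were seen.

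Clones with the same number did not deviate together (r = 0.05, -0.12 and -0.07 for clones 1, 2 and 3), so numbers were not used as pairs. No 2 clones of a group agreed within sampling noise (chi-square per gene of 14.8 to 120).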

Additional observations from a re-analysis of the deposited data

How the results depend on the processing

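Among 478 values of single receptors under the alternatives, 455 kept their direction and their side of the threshold, 8 passed the threshold and 15, in 6 receptors, changed direction. The 8 came from clone quality weights. They were 1.87, 2.54 and 0.279 for Control 1, 2 and 3, and 0.286, 0.672 and 3.91 for *Snd1* KO 1, 2 and 3. The KO side of these calls thus rested mainly on *Snd1* KO 3. With them 895 genes were called (5.02%), of which 525 were higher and 370 lower, and 8 receptors. *Drd1*, *Gabbr1*, *Chrm4*, *Adora1*, *Cnr1* and *Gprc5c* were the 6 higher receptors, against 2.95% of all genes (5 without *Drd1*, which passed the filter only through the KO clones), and *Sstr5* and *Ffar4* the 2 lower, against 2.08%. The weights were estimated from the same 6 clones. Under all other alternatives run, 0 receptors were called.

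Over all genes the count was 1. It was 0 with no filter, with voom on recovered reads, without a trend and with the replicate block (0 receptors), and 2 at an adjusted p under 0.1. It was 0 to 2 when 1 clone was left out. The cause was not tested. When 1 clone is left out, the rule of every KO clone against every control is looser, so its counts can hardly fall. The number of receptors higher in every KO clone ranged from 5 to 13 and the number lower from 0 to 4 when 1 clone was left out (counts chosen after seeing the data), against 12.1% to 22.6% and 5.24% to 17.9% of all genes. The 13 include *Drd1* and the 4 include *Cckar*, which passed the filter only through the group where they are high. The median log2 fold change of the receptors ranged from 0.069 with no filter to 0.42 with clone quality weights, and was 0.40 by voom.

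The log2 fold changes that changed direction were *Htr1d* with quantile normalization (-0.017) and leaving out 1 clone (-0.42 to 0.73), *Gprc5b* with median ratio scaling (-0.0058) and leaving out 1 clone (-0.20 to 0.34), *Drd2* (0.50), *Cckbr* (-0.067) and *Gabbr2* (0.014) with quality weights, and, leaving out 1 clone, *Drd2* (-0.61 to 0.59), *Gabbr2* (-0.28 to 0.16) and *Sstr3* (-0.019 to 0.14). The adjusted p over the alternatives was 0.0206 to 0.765 for *Gabbr1*, 0.0179 to 0.919 for *Galr1*, 0.0179 to 0.986 for *Gprc5c* and 0.0351 to 0.986 for *Cnr1*. Receptors with few reads, such as *Ffar4* (4 to 33 reads), carry a large counting error.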
